A study of Mus musculus with 16 samples.

Results

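The growth factor genes described here are 7 ligand genes measured in mouse bone marrow derived mast cells (BMMCs): Areg, Hbegf and Ereg of the epidermal growth factor (EGF) family, Vegfa, Pdgfa and Pdgfb of the vascular endothelial and platelet-derived growth factor families, and Tgfb1. Matched by gene symbol, they are 7 of the 39179 gene identifiers in the count data. BMMCs were grown for 4 weeks, with stem cell factor and interleukin-3, from the marrow of male C57BL/6 mice aged 8 to 10 weeks. The mice were either wild type (PEP+/+) or lacked PEP (PEP-/-), a protein tyrosine phosphatase encoded by Ptpn22. RNA was sequenced from 16 samples, 2 for each combination of 2 genotypes and 4 treatments. All cells, the controls included, were sensitized with immunoglobulin E (IgE) at 0.05 µg/ml for 3 h. IgE cells received nothing else, IgE DNP cells were activated with the antigen dinitrophenol on albumin (DNP, 200 ng/ml) for 1 h, IgE DEX cells had the glucocorticoid dexamethasone (DEX, 100 nM) for 8 h, and IgE DNP DEX cells had both. The study calls its replicates biological. How many mice or cultures stood behind each sample was not given in the sources used here, so p-values measure only the spread between these samples.

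Mast cells carry IgE on a high-affinity receptor, and antigen that cross-links the IgE starts a rapid burst of transcription as well as degranulation. EGF-family ligands are made as membrane-bound precursors, are cut free by ADAM proteases and bind ErbB receptors on epithelium, fibroblasts and other neighbouring cells. Vegfa drives the growth of blood vessels, PDGF ligands act on mesenchymal cells, and TGF-beta is secreted in a latent form that has to be activated outside the cell. Glucocorticoids act through a nuclear receptor that raises some genes and represses many genes of activated immune cells.

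Of the 7 genes, Hbegf, Vegfa, Pdgfa and Tgfb1 passed the filter on low counts and were tested among 13305 genes. Areg, Ereg and Pdgfb did not pass it, and no statement on all 7 is drawn from the tested ones. Reads on genes numbered 8612531 to 22143526 in each sample. The labelled treatments and genotypes were visible in the check genes: all 5 antigen response genes (Fos, Egr1, Nr4a1, Tnf and Il13) rose with DNP, all 4 DEX response genes (Tsc22d3, Fkbp5, Per1 and Dusp1) rose with DEX, and Ptpn22 averaged 13.6 to 168 CPM (counts scaled to a common library size) in the PEP+/+ conditions and 0.0257 to 2.21 CPM in the PEP-/- conditions. The 10 mast cell markers summed to 63200 to 104000 CPM. The 1 sample of each condition numbered in the labels and the 1 with a letter are called the numbered and the lettered replicate below.

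Areg lies on chromosome 5 of GRCm38 at 91139599 to 91148432 on the plus strand, and Ereg lies next to it at 91074622 to 91093646. Vegfa lies on chromosome 17 at 46016993 to 46032369 on the minus strand. Pdgfa is at 138976014 to 138997370 of chromosome 5 and Pdgfb at 79995874 to 80014977 of chromosome 15, both on the minus strand, and Tgfb1 is at 25687002 to 25705077 of chromosome 7 on the plus strand. Whether the counting used strand was not given in the sources used here, and antisense genes overlap Ereg, Pdgfa and Pdgfb. Without strand, reads on bases that Pdgfa shares with its antisense partner 6330403L08Rik cannot be told apart. Such reads may be in the row of ambiguous reads, which was left out, and so be missing from Pdgfa. On 6330403L08Rik 24 to 138 reads per sample were counted.

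The 250 bases upstream of the start of transcription are shown for Areg and Tgfb1, since among ligands with reads after IgE DNP they had the lowest and the highest level. Both were taken from RefSeq promoters on GRCm38, and both are written along the plus strand. Capitals mark the letters of a searched motif.
Areg, chr5:91139349-91139598, plus strand: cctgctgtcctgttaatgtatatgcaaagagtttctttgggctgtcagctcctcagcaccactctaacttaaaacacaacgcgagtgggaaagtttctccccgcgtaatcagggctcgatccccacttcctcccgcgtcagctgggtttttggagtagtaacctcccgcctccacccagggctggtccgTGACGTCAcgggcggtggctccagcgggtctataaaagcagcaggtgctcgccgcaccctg
Tgfb1, chr7:25686752-25687001, plus strand: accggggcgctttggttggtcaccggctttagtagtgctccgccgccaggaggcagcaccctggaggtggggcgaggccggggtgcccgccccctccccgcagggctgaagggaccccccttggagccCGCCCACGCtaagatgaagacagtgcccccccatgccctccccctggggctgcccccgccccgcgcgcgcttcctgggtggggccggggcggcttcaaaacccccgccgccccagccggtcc
The capitals in Areg are the cyclic AMP response element TGACGTCA, which lies 61 to 54 bases before the start and which 1.55% of all 32851 windows of this length held on either strand. The capitals in Tgfb1 are an EGR motif, GCGTGGGCG, read on the minus strand, 122 to 114 bases before the start, which 0.536% of the windows held. The AP-1 (TGANTCA) and hypoxia (ACGTG) motifs and the consensus motifs of NF-kB, the glucocorticoid receptor and the CArG box were searched on both strands too, and their shares of all windows were 6.75%, 16.6%, 1.41%, 0.00913% and 1.47%. The cyclic AMP response element and the hypoxia motif share the letters ACGT. No match of these other motifs was found in the windows shown, in the window before the first Vegfa exon or in those of Pdgfa, which overlap exons and are not shown. A further Vegfa window, which overlaps a Vegfa exon and is not shown either, held the hypoxia motif on the strand opposite to the gene, 211 to 207 bases before that start. A match describes letters only, and windows for Hbegf, Ereg and Pdgfb were not analysed here.

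Per kilobase of exon, Tgfb1 was the most abundant of the ligands in every treatment, with 59.8 ± 3.46 CPM per kb (SD, n = 4, both genotypes) after IgE. Vegfa followed at 7.76 ± 5.33, Pdgfa at 1.51 ± 0.106 and Hbegf at 0.483 ± 0.183 CPM per kb, and the ranges of these neighbours did not overlap. After IgE DNP the order of the means was the same, but the 3 ligands below Tgfb1 lay closer together. Tgfb1 stood at 132 ± 24.2 CPM per kb, while Vegfa at 15.8 ± 6.58, Pdgfa at 13.9 ± 3.71 and Hbegf at 10.4 ± 3.27 CPM per kb overlapped one another and did not differ beyond their spread. Areg reached 0.606 ± 0.4 CPM per kb, below every other expressed ligand. With the length of the longest transcript in place of all exons, Pdgfa (21.1) stood above Vegfa (19.7 CPM per kb) after IgE DNP.

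DNP raised Hbegf, Pdgfa and Tgfb1, with and without DEX. Without DEX, Hbegf (heparin-binding EGF-like growth factor) rose 21.8-fold, Pdgfa 9.19-fold and Tgfb1 2.21-fold. Of the 4 tested genes, 3 were called higher, where 9.07% of all tested genes were called higher and 16.7% in either direction (edgeR, Benjamini-Hochberg adjusted p under 0.05). The values of each sample are in the plot of CPM by sample.

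**Figure D1:**
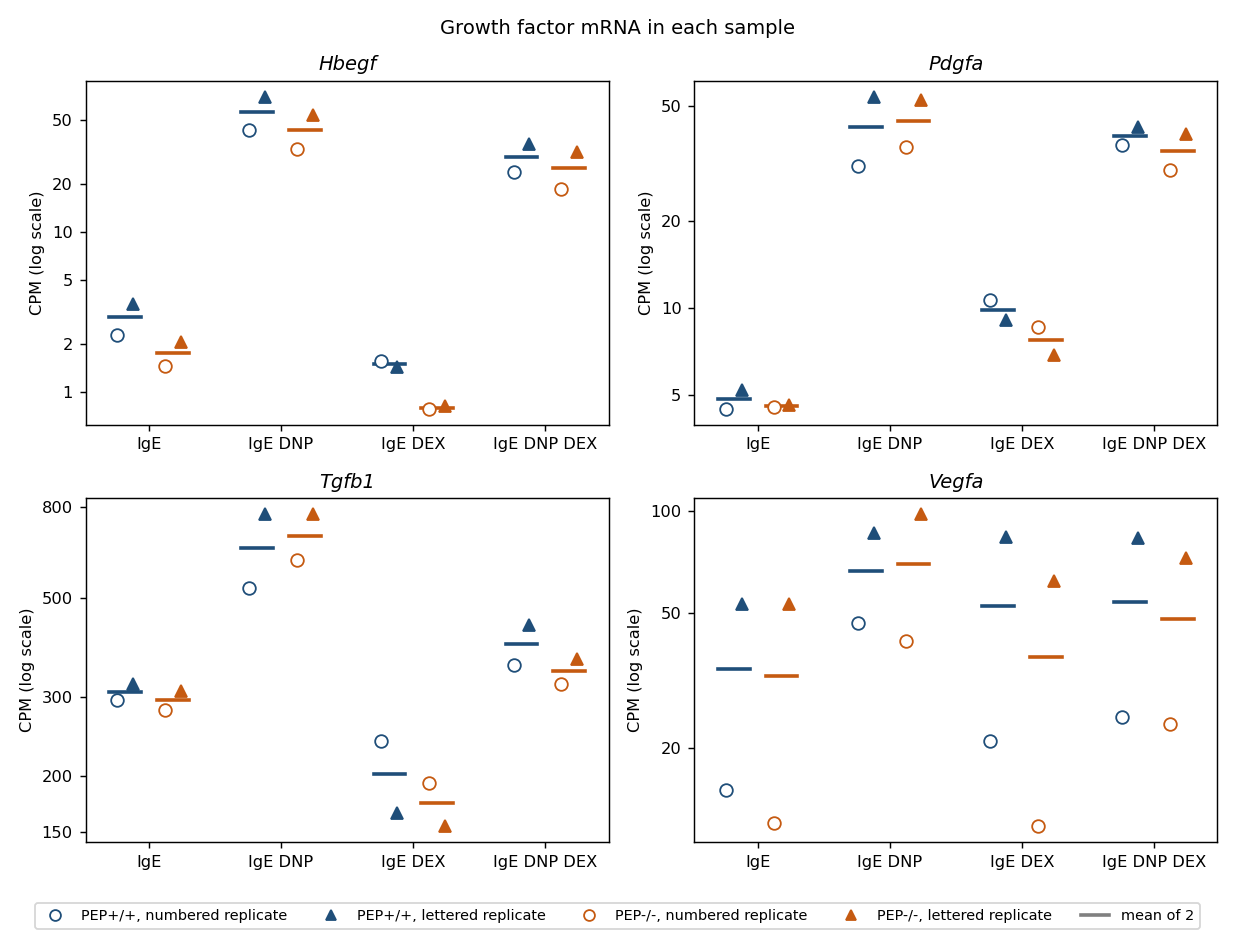
CPM on a log axis of Hbegf, Pdgfa, Tgfb1 and Vegfa in each of the 16 samples, by treatment. Circles are the numbered and triangles the lettered replicates, blue is PEP+/+ and orange PEP-/-, and bars are means of 2. All 4 IgE DNP samples of Hbegf, from 33.3 to 70.3 CPM, lie above all 4 IgE samples, from 1.46 to 3.56 CPM, whereas the circles of Vegfa lie below its triangles in every condition.

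Hbegf lies on the minus strand of chromosome 18 of GRCm38, at 36504927 to 36515805, and encodes an ErbB ligand for epithelial and smooth muscle cells. It was counted at 2.28 and 3.56 CPM in the PEP+/+ IgE samples (numbered, then lettered replicate) and at 43.2 and 70.3 CPM after IgE DNP. In PEP-/- BMMCs it was at 1.46 and 2.06 CPM after IgE and at 33.3 and 53.7 CPM after IgE DNP. Every activated sample lay far above every sensitized one in both genotypes. The log2 fold change, averaged over genotypes, was 4.44 (SE 0.3, 95% interval 3.79 to 5.1, adjusted p = 2.5e-06 in edgeR's quasi-likelihood test). In DEX-treated cells Hbegf was at 1.56 and 1.43 CPM in PEP+/+ and at 0.778 and 0.814 CPM in PEP-/- without antigen. With antigen it reached 23.8 and 35.4 CPM in PEP+/+ and 18.5 and 31.6 CPM in PEP-/-. The rise by DNP on top of DEX was again seen in all 4 same-replicate differences, with a log2 fold change of 4.63 (SE 0.31, adjusted p = 4.74e-06).

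Pdgfa, the A chain of platelet-derived growth factor and a mitogen for fibroblasts and smooth muscle, was at 4.48 and 5.2 CPM in PEP+/+ IgE and at 31 and 53.9 CPM in PEP+/+ IgE DNP samples. The PEP-/- samples held 4.55 and 4.63 CPM after IgE and 36 and 52.6 CPM after IgE DNP. The 2 groups of 4 did not overlap, and the log2 fold change was 3.2 (SE 0.22, adjusted p = 2.97e-06). With DEX, Pdgfa stood at 10.7 and 9.08 CPM in PEP+/+ and 8.61 and 6.92 CPM in PEP-/- before antigen, and at 36.6 and 42.3 CPM in PEP+/+ and 30 and 39.9 CPM in PEP-/- after it. The activated levels with and without DEX overlapped while the sensitized levels did not, so that the log2 fold change by DNP was 2.08 (SE 0.21, adjusted p = 9.25e-05) in DEX-treated cells.

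Tgfb1, a regulator of immune cells and of matrix production, was at 296 and 321 CPM in PEP+/+ IgE and at 526 and 769 CPM in PEP+/+ IgE DNP samples. In PEP-/- it was at 281 and 309 CPM after IgE and at 607 and 770 CPM after IgE DNP. All 4 activated samples were above all 4 sensitized ones, with a log2 fold change of 1.15 (SE 0.18, adjusted p = 0.00104). With DEX the PEP+/+ samples went from 239 and 165 CPM to 354 and 434 CPM, and the PEP-/- samples from 193 and 154 CPM to 321 and 364 CPM. The log2 fold change by DNP was then 0.97 (SE 0.18, adjusted p = 0.00428), where 3 of the 4 tested genes were called higher and 7.19% of all tested genes were. Samples of Hbegf, Pdgfa and Tgfb1 with antigen lay above those without it in both DEX states, which held for 11.6% of tested genes without DEX and 10.1% with DEX.

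Vegfa, the main angiogenic ligand of the family, did not pass the test as fitted, and its 2 replicates stood far apart in each condition. The PEP+/+ samples held 15 and 53 CPM after IgE and 46.6 and 86 CPM after IgE DNP, and the PEP-/- samples 12 and 53 CPM and 41.2 and 97.7 CPM. Each lettered sample was above the numbered sample of its condition, in 8 of 8 conditions and by 1.84 to 5.33 times (median 3.45). Lettered replicates above numbered ones by as much as for Vegfa or more, as the median over conditions, were found in 1.05% of tested genes. Sensitized and activated samples therefore overlapped, and the log2 fold change by DNP was 1.03 (SE 0.74, 95% interval -0.59 to 2.65, adjusted p = 0.443). With the replicate as a block, Vegfa rose by 1.24 on the log2 scale (95% interval 0.83 to 1.66, adjusted p = 0.000134), where 37.9% of all tested genes were called. Within replicates the differences were 1.63 and 1.76 in the numbered and 0.7 and 0.88 in the lettered samples (PEP+/+ first). With DEX, Vegfa was at 20.9 and 83.7 CPM in PEP+/+ IgE DEX, at 24.6 and 82.9 CPM in PEP+/+ IgE DNP DEX, at 11.7 and 62.1 CPM in PEP-/- IgE DEX and at 23.5 and 72.2 CPM in PEP-/- IgE DNP DEX. The log2 difference by DNP was 0.21 there (SE 0.73, adjusted p = 0.902), and the block gave 0.33 (adjusted p = 0.189). The change of the DNP response of Vegfa under DEX was -0.81 (95% interval -3.09 to 1.46, adjusted p = 1), and the block gave -0.92 (95% interval -1.49 to -0.35, adjusted p = 0.129).

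**Figure D2:**
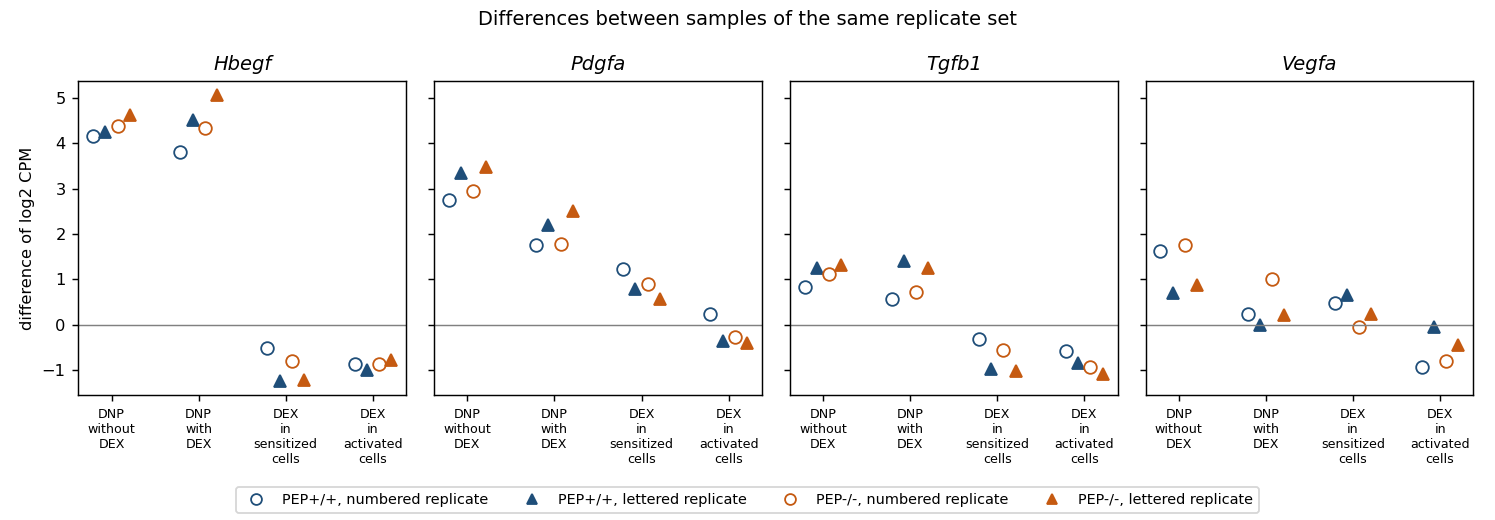
Differences of log2 CPM between samples of the same replicate set and genotype, 4 per gene and comparison. Circles are numbered and triangles lettered replicates, blue is PEP+/+ and orange PEP-/-. All 4 points of Hbegf, Pdgfa and Tgfb1 lie above 0 in both DNP comparisons, and those of Vegfa without DEX run from 0.7 to 1.76.

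Areg, the ligand amphiregulin that mast cells can supply to epithelium, had all but 1 of its reads in samples with antigen. In PEP+/+ cells 15 and 6 reads were counted after IgE DNP, 3 and 0 after IgE DNP DEX, and 0 in all 4 samples without antigen. In PEP-/- cells 7 and 5 reads were counted after IgE DNP, 0 and 1 after IgE, and 0 in the 4 samples with DEX. These 37 reads are all that 16 samples held, so each ratio covers counting error only. After DNP the PEP+/+ level was at least 9.04-fold higher than in sensitized cells, where both samples were at 0 (floor of 3 reads over the group), and the PEP-/- level was 12 times higher (95% exact counting interval 1.78 to 514). Activated cells without DEX held 8.52 times more Areg than those with DEX in PEP+/+ (95% interval 2.54 to 44.6) and at least 3.07-fold more in PEP-/-. PEP+/+ IgE DNP cells held 2.73 times the level of PEP-/- IgE DNP cells (95% interval 1.28 to 6.09), but the reads of 1 PEP+/+ sample made up 15 of 21, and counting intervals leave out the spread between samples. When no filter was used, edgeR called Areg in the DNP comparison without DEX (adjusted p = 0.00122) and in the DEX comparison of activated cells (adjusted p = 0.0177).

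Ereg (epiregulin) had 0 reads in all 16 samples, of 219542333 reads on genes, which allows up to 0.0136 CPM over all samples. Pdgfb, the B chain of platelet-derived growth factor, had 11 reads in 5 samples, with at most 5 in 1 sample, a PEP+/+ IgE DEX one. None of the 4 IgE DNP samples held a read of Pdgfb. At this depth neither gene allowed a comparison between treatments.

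DEX moved the ligands in different directions. As fitted, it lowered Tgfb1 in both sensitized and activated cells and raised Pdgfa in sensitized cells. Both calls in sensitized cells were lost when any of several samples was left out. Hbegf was lower with DEX in both states, but was called only in some alternative fits, the replicate block and DESeq2 among them. In sensitized cells 1 of the 4 tested genes was called higher and 1 lower, where 5.4% of all tested genes were called higher and 3.98% lower. In activated cells 1 of 4 was called lower, against 4.99% of all tested genes.

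Tgfb1 fell by 0.69 on the log2 scale in sensitized cells (SE 0.18, adjusted p = 0.0305) and by 0.86 in activated cells (SE 0.18, adjusted p = 0.00952). Its 4 IgE DEX samples, at 154 to 239 CPM, lay below the 4 IgE samples at 281 to 321 CPM, and its IgE DNP DEX samples, at 321 to 434 CPM, lay below the IgE DNP samples at 526 to 770 CPM. Non-overlap of this kind was seen in 7.1% of tested genes in sensitized and 7.84% in activated cells. The call in sensitized cells was lost when any of 7 samples was left out, namely either replicate of PEP+/+ IgE, PEP-/- IgE or PEP-/- IgE DEX or the lettered replicate of PEP+/+ IgE DEX (largest adjusted p = 0.126), whereas the call in activated cells was kept in all 16 such fits.

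Pdgfa rose by DEX in sensitized cells, from 4.48 to 5.2 CPM in the IgE samples to 6.92 to 10.7 CPM in the IgE DEX samples, without overlap, as 8.51% of tested genes did. The log2 fold change was 0.89 (SE 0.21, adjusted p = 0.0204), and all 4 same-replicate differences were positive at 1.23, 0.79, 0.9 and 0.56. Leaving out either replicate of PEP+/+ IgE or of PEP-/- IgE, or the numbered replicate of PEP+/+ IgE DEX or of PEP-/- IgE DEX, ended the call (largest adjusted p = 0.0827). In activated cells the groups overlapped, with a log2 difference of -0.22 (95% interval -0.66 to 0.21, adjusted p = 0.577). The DNP response of Pdgfa was smaller under DEX by 1.12 on the log2 scale (95% interval of the change -1.75 to -0.48), a change that was not called as fitted (adjusted p = 0.323, with 0.331% of tested genes called) and was called with the replicate block (-1.13, adjusted p = 0.024, with 1.57% called).

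Hbegf was lower with DEX in all 8 same-replicate differences, from -0.5 to -1.23 in sensitized and from -0.76 to -0.99 in activated cells. The share of all tested genes with 8 differences of the same sign was not computed. The log2 differences of -1.06 (SE 0.31, adjusted p = 0.0573) and -0.87 (SE 0.25, adjusted p = 0.0509) lay just outside the threshold as fitted. With the replicate block Hbegf fell by 1.01 (adjusted p = 0.00153) and by 0.87 (adjusted p = 5.33e-05), where 26.7% and 33.3% of all tested genes were called. DESeq2 also called both (adjusted p = 0.0293 and 0.0225). Even with DEX, activated cells held more Hbegf, at 18.5 to 35.4 CPM, than any sensitized sample.

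Vegfa showed log2 differences by DEX of 0.4 in sensitized cells (95% interval -1.21 to 2, adjusted p = 0.89) and -0.42 in activated cells (95% interval -2.02 to 1.19, adjusted p = 0.814). With the block the second value was -0.58 and was called (adjusted p = 0.0293), and the first, 0.34, was not (adjusted p = 0.214).

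**Figure D3:**
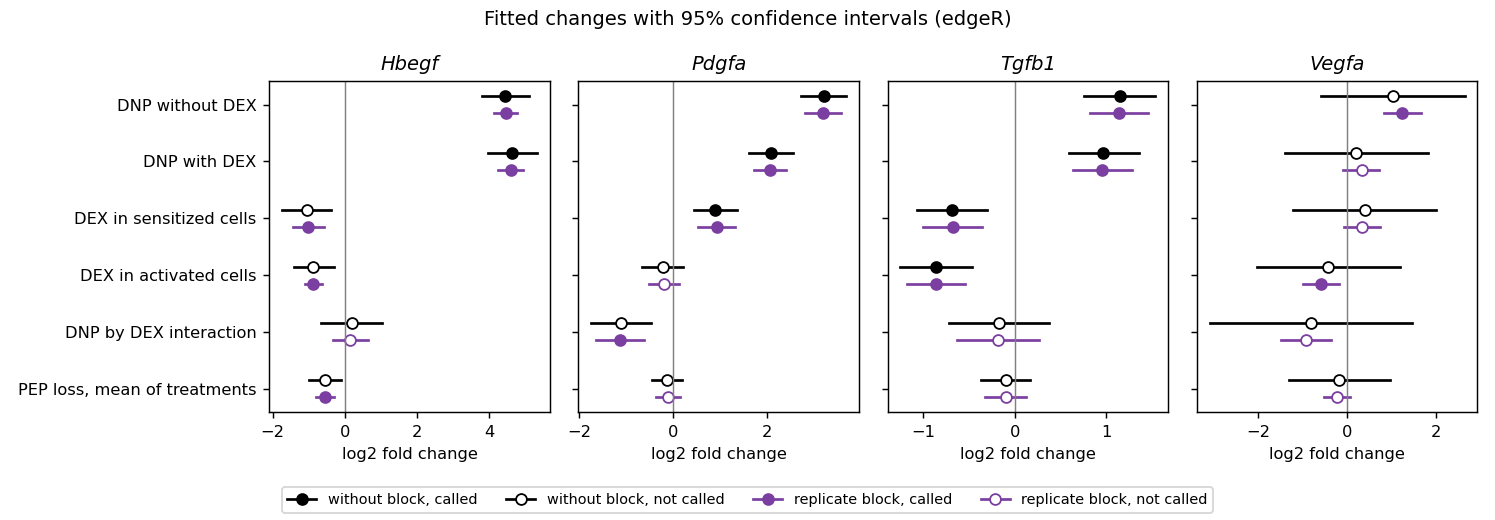
Log2 fold changes with 95% confidence intervals of the 4 tested genes in 6 comparisons, each panel with its own axis. Black marks are the fit without and purple marks the fit with the replicate block, and filled marks have an adjusted p under 0.05. The intervals of Vegfa narrow most with the block, from -0.59 to 2.65 to 0.83 to 1.66 in the first comparison.

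None of the 4 tested ligands passed the test for PEP loss as fitted, and Hbegf passed it with the replicate block. Of the 4 tested genes, 0 were called by edgeR or DESeq2 over the mean of the treatments, where edgeR called 1.59% of all tested genes. An unadjusted p under 0.05 in edgeR was found for 1 of the 4 and for 1884 of all 13305 tested genes. The log2 difference, PEP-/- minus PEP+/+, was -0.56 for Hbegf (95% interval -1 to -0.12, adjusted p = 0.212), -0.17 for Vegfa (-1.3 to 0.97, adjusted p = 0.953), -0.13 for Pdgfa (-0.45 to 0.19, adjusted p = 0.791) and -0.1 for Tgfb1 (-0.37 to 0.17, adjusted p = 0.827). Hbegf was lower in PEP-/- in all 8 same-replicate differences, from -0.16 to -0.89. The deviations of the 2 replicate sets correlated between conditions, so these are not 8 independent comparisons of genotype. The block is a term for the set that both genotypes share, and it does not model separate cultures of each genotype. With the replicate block it fell by 0.54 (adjusted p = 0.00572), where 17.4% of all tested genes were called, and the other 3 were not called.

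In each genotype alone, DNP without DEX raised the same 3 ligands, where 4.01% of all tested genes were called higher in PEP+/+ and 4.69% in PEP-/-. With the replicate block Vegfa rose too, by 1.2 in PEP+/+ (adjusted p = 0.00559) and 1.29 in PEP-/- (adjusted p = 0.00266), where 11.2% and 13.3% of all tested genes were called higher. With DEX, Tgfb1 was not called in either genotype alone as fitted (adjusted p = 0.0592 in PEP+/+ and 0.0547 in PEP-/-), but it was with the block (adjusted p = 0.00571 and 0.00505, where 11.7% and 10.3% of all tested genes were called higher). Hbegf changed by 4.28 in PEP+/+ and 4.6 in PEP-/- on the log2 scale without DEX (difference 0.32, 95% interval -0.87 to 1.51), Pdgfa by 3.13 and 3.27 (difference 0.14, -0.77 to 1.05) and Tgfb1 by 1.07 and 1.22 (difference 0.16, -0.61 to 0.92). The corresponding difference for Vegfa was 0.12 (-3.08 to 3.33). No tested gene (0%) was called for the change of the DNP response or of the DEX response in activated cells with PEP loss, by edgeR or by DESeq2, with 30 and 95 genes at an unadjusted p under 0.05 in edgeR. For the DEX response in activated cells the differences between genotypes were 0.13 for Hbegf (-0.97 to 1.24), -0.24 for Pdgfa (-1.11 to 0.63), -0.29 for Tgfb1 (-1.06 to 0.48) and -0.25 for Vegfa (-3.45 to 2.96).

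The effects of DEX in 1 genotype at a time passed the test only in the fit with the block, with adjusted p from 0.0548 to 0.356 as fitted for the calls given here. With the block Hbegf fell in sensitized cells by 0.98 in PEP+/+ and 1.05 in PEP-/- (largest adjusted p = 0.0362) and in activated cells by 0.93 and 0.81 (largest adjusted p = 0.00322). Tgfb1 fell in activated cells by 0.71 in PEP+/+ and 1 in PEP-/- (largest adjusted p = 0.0287). In sensitized cells Tgfb1 fell by 0.75 in PEP-/- (adjusted p = 0.0253) and differed by -0.6 in PEP+/+ (adjusted p = 0.0691), while Pdgfa rose by 1.03 in PEP+/+ (adjusted p = 0.0126) and differed by 0.81 in PEP-/- (adjusted p = 0.0502), and the change of these responses with PEP loss was not tested. Of all tested genes the block called 15.6% in PEP+/+ and 14.7% in PEP-/- for DEX in sensitized cells, and 18.9% and 18.1% in activated cells.

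The genes that followed the ligands most closely over the 16 samples were found by Pearson's correlation of log2 CPM, given as a description of samples that share their treatments. Hbegf was most like Tnfsf14 (r = 0.992), Tnfrsf9 (0.99) and Rhbdf2 (0.99). Pdgfa was most like Slc35e4 (0.988), Spry2 (0.985) and C5ar2 (0.983), and Tgfb1 like Smap2 (0.973), Map7d1 (0.969) and Orai1 (0.967). Vegfa, with its gap between the replicate sets, had its closest genes at lower values, Rdh5 (0.938), Dmtf1 (0.938) and Camta1 (0.93). By Spearman's rank correlation the 3 closest genes were other ones for Hbegf, Pdgfa and Vegfa, and 1 of 3 was shared for Tgfb1. Among the ligands Hbegf and Pdgfa correlated at 0.92 and Hbegf and Tgfb1 at 0.888, while Vegfa correlated with each at 0.378 to 0.483.

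The wider pathways were described by 69 other genes, of which 41 passed the filter. DNP without DEX raised 9 of the 41 and lowered 4, and DNP with DEX raised 8 and lowered 2. DEX raised 2 and lowered 2 in sensitized cells and raised 1 and lowered 4 in activated cells. Their median log2 fold changes were 0.13, -0.02, -0.11 and -0.19, beside 0, -0.02, 0 and -0.01 over all tested genes. In the fit with the block, 16 were raised and 7 lowered, 12 and 9, 6 and 12, and 5 and 15 in the same order. Of all tested genes the block called 18.6% higher and 19.3% lower, 18.4% and 19.2%, 12.9% and 13.8%, and 15.9% and 17.4%. Without it, DNP raised 9.07% and lowered 7.58% of all tested genes in cells without DEX, and 7.19% and 5.42% in cells with DEX. DEX raised 5.4% and lowered 3.98% of them in sensitized cells, and 5.67% and 4.99% in activated cells. For PEP loss edgeR called 0 of the 41, where it called 1.59% of all tested genes. An unadjusted p under 0.05 was found for 6 of the 41 and for 1884 of all 13305 tested genes. With the block 7 of the 41 were called higher, as were 7.72% of all tested genes. The 18 genes called at least once are in the plot of pathway genes. The share of all tested genes called at least once was not computed, so 18 of 41 is a description only.

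**Figure D4:**
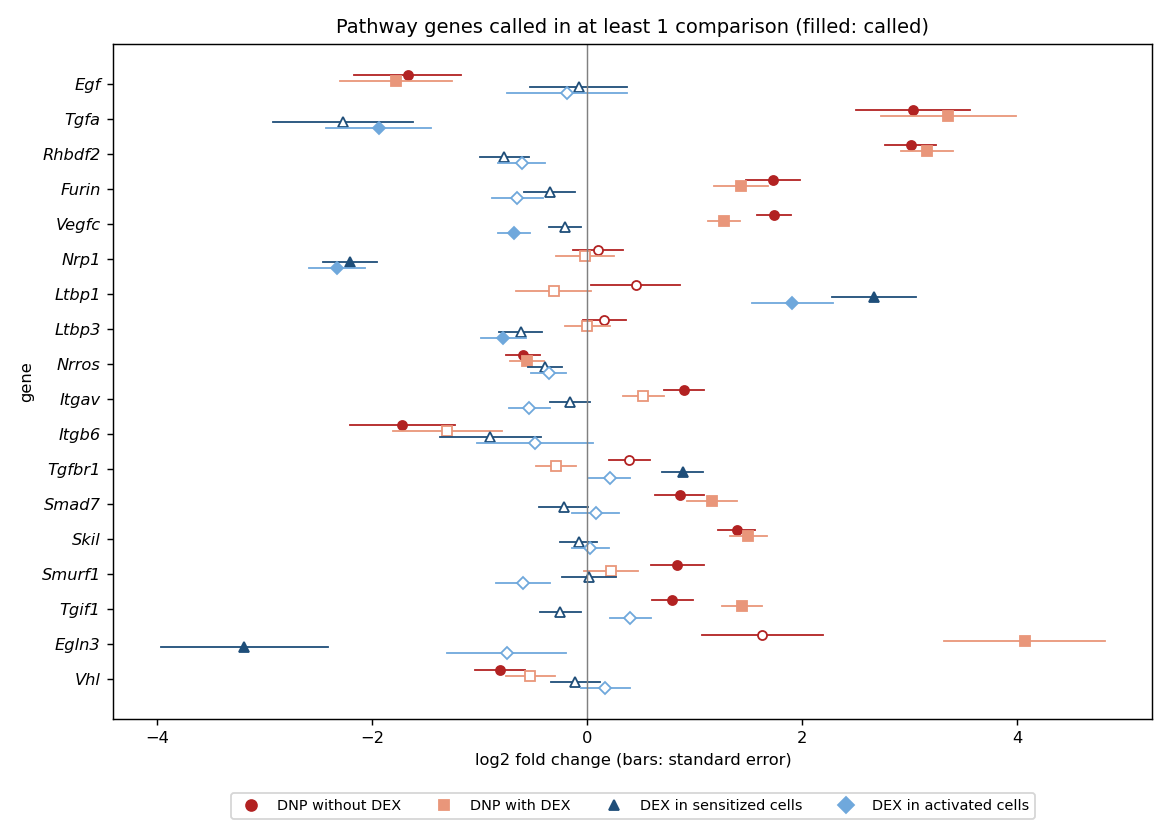
Log2 fold changes (points) with standard errors (bars) of the 18 pathway genes called in at least 1 comparison, in 4 treatment comparisons told apart by shape and colour. Filled points have an adjusted p under 0.05. Tgfa and Rhbdf2 rise by 3.01 to 3.36 with DNP in both DEX states, while the points of Nrp1 and Ltbp1 are filled only in the DEX comparisons.

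Among the other EGF-family ligands, 3 of 8 were tested, and the pair that changed moved in opposite directions. DNP without DEX raised 1 of the 3 and lowered 1, where 9.07% of all tested genes were raised and 7.58% lowered. Tgfa, another ErbB ligand, rose from 0.36 to 0.867 CPM after IgE to 2.46 to 10.9 CPM after IgE DNP (log2 fold change 3.03, SE 0.53, adjusted p = 0.0022) and was lower with DEX in activated cells (fell by 1.94, adjusted p = 0.0279). Egf, at 1.1 to 1.44 CPM after IgE, fell to 0.22 to 0.662 CPM after IgE DNP (log2 fold change -1.67, SE 0.5, adjusted p = 0.0426). Both were low, with at most 99 reads of Tgfa and 35 of Egf in a sample. Each could pass the filter on low counts through the samples where it was high. These calls therefore add no support beyond the values shown.

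Of 10 genes for ligand shedding and processing, 8 were tested and DNP raised 2. Over all tested genes, DNP raised 9.07% without DEX and 7.19% with DEX. Rhbdf2, an inactive rhomboid that brings the sheddase ADAM17 to the cell surface, rose from 23.9 to 28 CPM to 159 to 239 CPM (log2 fold change 3.01, adjusted p = 9.03e-06). Furin, the protease that cleaves precursors of TGF-beta and PDGF, rose from 1350 to 2040 CPM to 4750 to 6810 CPM (log2 fold change 1.73, adjusted p = 0.000611). Both rose with DNP under DEX as well. Adam10 and Adam17, the main sheddases, were expressed at 112 to 424 and 50.5 to 123 CPM, and their log2 differences by DNP were 0.98 (adjusted p = 0.0849) and -0.28 (adjusted p = 0.636).

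Of the other VEGF and PDGF ligands, 3 of 6 were tested, and Vegfc, a ligand for lymphatic vessels, rose from 36.2 to 47.5 CPM to 134 to 146 CPM with DNP (log2 fold change 1.74, SE 0.16) and fell by 0.68 with DEX in activated cells (adjusted p = 0.0156). Its IgE DNP samples span a narrow range over both replicates, unlike those of Vegfa. Nrp1, a co-receptor for VEGF, fell with DEX from 3.82 to 5.91 CPM to 0.847 to 1.73 CPM in sensitized cells (log2 fold change -2.21, SE 0.25, adjusted p = 0.000211) and by 2.33 in activated cells. Among 7 genes of the hypoxia pathway that can control Vegfa, 6 were tested. Vhl, which targets hypoxia-inducible factors for degradation, fell by 0.81 with DNP without DEX (adjusted p = 0.0353) and was not called with DNP under DEX. Egln3, an oxygen-sensing hydroxylase, was at 0 to 2 reads in IgE DEX samples and at 4 to 16 reads in IgE DNP DEX samples (adjusted p = 0.00475), and at 3 to 12 reads in IgE samples (adjusted p = 0.0239 for the fall with DEX). Egln3 could likewise pass the filter through the samples where it was high.

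Of 12 tested genes for TGF-beta receptors and SMAD signalling, 4 rose with DNP without DEX, with a list median of 0.18 on the log2 scale. Over all tested genes, 9.07% were called higher in that comparison. Smad7 and Smurf1, which act against the receptor, rose by 0.86 (adjusted p = 0.0229) and 0.84 (adjusted p = 0.0393) on the log2 scale, and the SMAD co-repressors Skil and Tgif1 by 1.39 (adjusted p = 0.000234) and 0.79 (adjusted p = 0.0148). Tgfbr1, a type I receptor, rose with DEX in sensitized cells from 464 to 684 CPM to 952 to 1200 CPM (log2 fold change 0.89, adjusted p = 0.0119). Of the latency genes, Itgav rose with DNP without DEX by 0.9 (adjusted p = 0.0079), while Itgb6 (fell by 1.72, adjusted p = 0.0349) and Nrros, which anchors latent TGF-beta on myeloid cells (fell by 0.6, adjusted p = 0.0233), went down. Itgb6 was low, at 0.378 to 3.86 CPM over all samples, and could pass the filter through those where it was high. With DNP under DEX, Nrros was called and Itgav and Itgb6 were not. Ltbp1, a latent TGF-beta binding protein, rose with DEX from 0.294 to 0.874 CPM to 2.52 to 5.7 CPM in sensitized cells (log2 fold change 2.67, adjusted p = 0.00115) and by 1.91 in activated cells, and Ltbp3 fell by 0.78 in activated cells (adjusted p = 0.0325). Ltbp1 could pass the filter through the DEX samples, where it was high, so its calls add no support beyond the values shown.

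Markers of other cell types that the cultures could hold were examined beside these results. The 5 fibroblast markers summed to at most 0.113 CPM and the 5 T and B cell markers to at most 0.605 CPM. The 7 neutrophil markers, of which 1 passed the filter on low counts, summed to 1.15 to 2.35 CPM in numbered and 0 to 0.257 CPM in lettered samples. The 6 megakaryocyte markers summed to 2060 to 3010 and 3100 to 4070 CPM in the same order. Of these 6, 3 passed the filter, while Pf4, Gp1bb and Ppbp, the last at 0 in all samples, did not. The megakaryocyte sum was higher in the lettered samples, as Vegfa was, and the neutrophil sum in the numbered ones. The sets also differed in reads on no annotated gene. These were 4.69 to 7.18% of all counted entries in numbered and 8.35 to 10.98% in lettered samples. The part of this difference in the gap of Vegfa was not tested. The 8 macrophage markers summed to 5.85 to 18.1 CPM with C1qa at 0, and 1 of them, Cd14, rose with DNP (log2 fold change 2.24). The 4 basophil markers summed to 646 to 683 CPM after IgE, 833 to 1000 after IgE DNP, 344 to 485 after IgE DEX and 521 to 624 CPM after IgE DNP DEX. Of them 1, Cd200r3, was called, rising with DNP and falling with DEX, and the list median by DEX was -0.04 in sensitized and 0.07 in activated cells on the log2 scale. The 4 eosinophil markers, with Epx at 0, summed to 5.41 to 27.7 CPM, and the 4 endothelial markers, with Cdh5 and Emcn at 0, to 211 to 574 CPM. Siglecf of the eosinophil list rose with DNP, and Ccr3 of that list and Tek of the endothelial list fell with DEX. The part of these cell types in the ligand values was not tested, and in bulk RNA fewer cells of a type and less RNA per cell cannot be told apart.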

How the data were processed

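RNA of 16 BMMC samples was sequenced as paired-end reads from a stranded mRNA kit. Reads were aligned to GRCm38 with Tophat2 (v2.0.11) and counted on genes with HTSeq (v0.5.3). The authors deposited the raw read counts of each sample, and 5 further rows for unassigned reads, 29.1 to 49.6% of all counted entries, were left out. These rows hold the reads with several alignments, which leaves near-identical genes uncertain. Groups were taken from the labels. GENCODE M21 on GRCm38 gave symbols for 37607 of 39179 identifiers (95.99%).

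Counts were scaled by TMM to CPM, filtered by filterByExpr (minimum count 10) and fitted over 16 samples and 8 condition means by the quasi-likelihood method of edgeR 4.0.16 (R 4.3.3), leaving 8 residual degrees of freedom and a common biological coefficient of variation of 0.312. A gene was called at a Benjamini-Hochberg adjusted p under 0.05 over all 13305 genes tested. Correlations used log2 CPM with a prior count of 2. Floors (3 counts) and intervals cover counting error only, since reads carry no molecular identifiers.

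The labels' numbers and letters gave replicate 1 and replicate 2. Their deviations correlated between conditions at 0.453 to 0.799 (mean 0.672), over 0.1 in 28 of 28 pairs, so the fit with the replicate as a block is given where it changed the call of a ligand. The labels give an IgE dose of 0.05 µg/ml, which is used here, and the study's text gives another.

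The ligands and gene lists were chosen with earlier results of these data known. Named genes were the 7 ligands, Ptpn22, the check genes, pathway genes called in any of 6 comparisons and the 3 genes most correlated with each tested ligand. Other genes named for levels or marker lists were chosen after their values were seen. Alternatives were DESeq2 1.42.0, its size factors in edgeR, no filter, a minimum of 10 counts in each sample, a fit to the compared conditions alone, the replicate block, each replicate left out, the longest transcript as length and rank correlation.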

Additional observations from a re-analysis of the deposited data

Results flagged for a closer look

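The DNP response of Pdgfa differed between cells with and without DEX in the fit with the replicate as a block, where the test of that difference gave -1.13 on the log2 scale (SE 0.24, adjusted p = 0.024). Pdgfa changed by 3.2 with DNP in cells without DEX and by 2.08 in cells with DEX. Its DNP response was smaller with DEX in all 4 same-replicate comparisons, at 1.76 against 2.75, 2.2 against 3.34, 1.79 against 2.94 and 2.5 against 3.47. Without the block the change was -1.12 (SE 0.29) and was not called (adjusted p = 0.323). It ranged from -1.26 to -0.86 when 1 replicate was left out of that fit. In 1 genotype at a time it was not called even with the block in edgeR. There it was -1.11 in PEP+/+ (adjusted p = 0.295) and -1.16 in PEP-/- (adjusted p = 0.328).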

How the results depend on the processing

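The rises of Hbegf, Pdgfa and Tgfb1 with DNP kept their direction and their call under every alternative in which the gene was tested, each left-out replicate included. Hbegf was not tested when 10 counts were required in every sample. The replicate block gave 5042 called genes against 2216 for DNP without DEX, 5007 against 1678 for DNP with DEX, 3548 against 1247 for DEX in sensitized and 4429 against 1418 for DEX in activated cells, 209 against 44 for the DNP by DEX interaction and 2310 against 212 for PEP loss. Among the ligands the block raised the calls from 1 to 3 for DEX in activated cells, from 0 to 1 for the interaction and from 0 to 1 for PEP loss, and apart from the calls given with the results it changed none of the ligands' calls. Only the 4 conditions compared gave 953 genes for DNP with DEX and 805 for DEX in activated cells. Without a filter 107 genes were called for the interaction, 472 for PEP loss, and 3 and 24 for PEP loss by DNP and by DEX. Ligand calls then rose to 5 for DNP without DEX, with Areg and Vegfa (adjusted p = 4.94e-05) added, to 3 for DEX in sensitized cells, with Hbegf (adjusted p = 0.00568) added, and to 3 for DEX in activated cells, with Areg and Hbegf added. The cause was not tested. DESeq2 called 96 genes for the interaction, 668 for PEP loss and 2 ligands for DEX in activated cells.

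Leaving out 1 replicate at a time gave 1390 to 2251, 927 to 1604, 845 to 1269, 852 to 1317, 12 to 27 and 57 to 203 called genes for these 6 comparisons in the same order, with fewer samples in each fit. Between 0 and 3 ligands were called for DEX in sensitized cells, 1 to 2 for DEX in activated cells and 3 to 4 for DNP without DEX, the additional one being Areg, which then could pass the filter. Hbegf gained its call for DEX in activated cells without the numbered replicate of PEP+/+ IgE DNP (adjusted p = 0.0497) or the lettered one of PEP-/- IgE DNP DEX (adjusted p = 0.0428), and for DEX in sensitized cells without either replicate of PEP-/- IgE DNP DEX. Areg was the second ligand called for DEX in activated cells without the numbered replicate of PEP+/+ IgE DNP DEX. Values that changed sign were not called. Vegfa ranged from 0.64 to 1.75 for DNP without DEX and -0.97 to -0.02 for DEX in activated cells, where its sign held, and from -0.34 to 1.04 for DNP with DEX, -0.42 to 1.12 for DEX in sensitized cells, -1.54 to 0.01 for the interaction, -0.58 to 0.16 for PEP loss, and -1.05 to 1.57 and -1.3 to 0.87 for PEP loss by DNP and by DEX. Hbegf ranged from -0.03 to 0.75 and -0.34 to 0.49 in the last 2, Pdgfa from -0.17 to 0.63 and -0.72 to 0.08, and Tgfb1 from -0.06 to 0.49 in the first of them. Pdgfa ranged from -0.38 to 0.02 for DEX in activated cells and Tgfb1 from -0.3 to 0.01 for the interaction. Depth limits Areg, Ereg and Pdgfb, which had at most 15 reads in a sample. Areg was not tested without the numbered replicate of PEP+/+ IgE DNP, which held those 15 reads. With 1 replicate left out it passed the filter only through IgE DNP samples, where it was high. Its calls in such fits therefore add no support for a rise with DNP or a fall with DEX.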

Other observations

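Receptors for most of these ligands were at or near 0 in the BMMCs. Erbb2 had 0 reads in all 16 samples, and Egfr had at most 3 and Erbb4 at most 1 read in a sample. Erbb3, the ErbB receptor without strong kinase activity of its own, was at 1.62 to 6.65 CPM. The VEGF receptors Flt1, Kdr and Flt4 and the PDGF receptor Pdgfra had at most 1 read in a sample, and Pdgfrb was at 0.0867 to 5.65 CPM. In contrast, the TGF-beta receptors Tgfbr1 and Tgfbr2 were at 464 to 1200 and 92.6 to 206 CPM. Of 4 ErbB genes 1 passed the filter, and of 7 genes for VEGF and PDGF receptors and co-receptors 2 did.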
